A study of Mus musculus with 3 samples.

Results

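The 33 genes described here carry out macroautophagy in the mouse: most encode the machinery that builds the autophagosome, the ATG8 proteins included, and 4 encode cargo receptors. They were chosen by name, for their known roles and with earlier results of these data known. The choice was made from 55536 annotated genes, of which 22028 are protein-coding. The 33 genes fall into 6 roles: 5 act in initiation, 5 in the lipid kinase complexes, 5 in membrane supply and phosphoinositide binding, 9 in conjugation, 5 are ATG8 proteins and 4 are cargo receptors.

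Macroautophagy encloses cytoplasmic material in a double membrane, the autophagosome, which then fuses with lysosomes. A kinase complex starts the process, a lipid kinase marks the membrane with phosphatidylinositol 3-phosphate, and a ubiquitin-like conjugation system attaches ATG8 proteins to the lipid phosphatidylethanolamine of the growing membrane. In macrophages the same conjugation system also acts on phagosomes, and cargo receptors link ubiquitin-tagged proteins, mitochondria or bacteria to the ATG8 proteins.

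The cells were macrophages grown in culture from the bone marrow of C57BL/6J mice, and 3 RNA libraries were made from them. All 3 are labelled as biological replicates of 1 group. The cells were given Lipid A, the part of bacterial lipopolysaccharide sensed by the receptor Tlr4, at 100 ng/ml for 12 hours, were then kept without it for 12 hours, and received the same dose again for 40 minutes. Total RNA of the cytosolic fraction was depleted of ribosomal RNA and sequenced. No genetic change is named in the labels, and sex and age were not collected. The libraries share a donor label, so whether the cultures came from separate animals is not given. The p-values therefore speak for these libraries only, and the spread behind them is estimated partly from all genes. Untreated cells and cells stimulated without a prior dose were not analysed here, so every value below is a level or a ratio of levels, not a response to Lipid A.

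Expected counts, the authors' estimates of reads per gene, summed over annotated genes to 38197192, 46327891 and 38685666 in replicates 1, 2 and 3. All 10 macrophage markers examined were detected, with a summed level of 4184 to 5771 TPM per library; TPM is a length-corrected level that sums to the same total in every library. None of 20 markers of neutrophils, lymphocytes, dendritic and mast cells, or stromal and erythroid cells was detected, and their summed level was 0.73 to 1.32 TPM. Nuclear protein-coding genes held 27.7% to 33.3% of all TPM, the rest lying on mitochondrial genes and other RNA classes, so the TPM of every gene also moves with those. The nuclear-retained RNAs Malat1 and Neat1 were lowest in replicate 2, at 485 TPM against 1445 and 1726 for Malat1, and at 16.1 TPM against 87.7 and 88.3 for Neat1. In such bulk samples, fewer cells expressing a gene and less RNA of it per cell cannot be told apart.

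The ATG8 proteins are shown first by sequence, because reads can be assigned between them only where the genes differ. An ATG4 protease cuts each precursor after a glycine near its end, and that glycine is then joined to the lipid. The lines give the last 60 coding bases before the stop codon of the named transcript, on the coding strand, with the codon of that glycine in capitals. The bases come from annotation M21 on the mm10 build.
Map1lc3a-201, chr2:155277575-155277634, plus strand: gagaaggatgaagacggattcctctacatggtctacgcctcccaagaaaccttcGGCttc
Map1lc3b-201, chr8:121596708-121596767, plus strand: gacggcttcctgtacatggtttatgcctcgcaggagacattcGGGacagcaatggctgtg
Gabarap-201, chr11:69994462-69994521, plus strand: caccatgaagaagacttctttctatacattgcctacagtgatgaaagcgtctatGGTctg
Gabarapl1-201, chr6:129541105-129541164, plus strand: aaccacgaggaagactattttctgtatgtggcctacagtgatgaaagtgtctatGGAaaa
Gabarapl2-201, chr8:111952343-111952402, plus strand: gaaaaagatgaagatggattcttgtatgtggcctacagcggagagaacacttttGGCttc

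Map1lc3b carries 5 codons after the glycine codon, and each of the other 4 genes carries 1. Over the whole coding sequence, the closest genes were Map1lc3a and Map1lc3b, at 77.6% identity. Gabarap and Gabarapl1 followed at 74.6%, and the lowest identity, between Map1lc3a and Gabarapl1, was 57.1%. The longest run of identical bases shared by any 2 of the 5 coding sequences was 17 bases, between Gabarap and Gabarapl1.

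All 33 genes were detected, meaning a TPM of 1 or more in each of the 3 libraries, against 41.4% of annotated protein-coding genes. The genes were chosen with earlier results known, and relatives under that limit, such as Atg9b and Calcoco2, are not among them. The choice itself may therefore have set this count. Levels of the 33 genes covered a wide range, from Wipi1 at 1.94 ± 0.27 TPM to Sqstm1 at 325 ± 99.1 TPM (SD, n = 3). The median over the 33 genes of mean log2(TPM + 1) was 3.15, beside 3.25 for the 9118 detected protein-coding genes. Of the 33 genes 15 lay above that median of detected genes, and 18 had a mean under 10 TPM. The median mean TPM of detected genes, 8.61, was itself under 10. Sqstm1 and Gabarap stood far above the others, with ranks of 90 and 140 among the detected genes, and Vmp1 came next at rank 685. The plot of all 33 genes by library shows these 3 genes at 49.4 TPM or more in every library and the other 30 genes between 1.69 and 40.3 TPM.

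**Figure D1:**
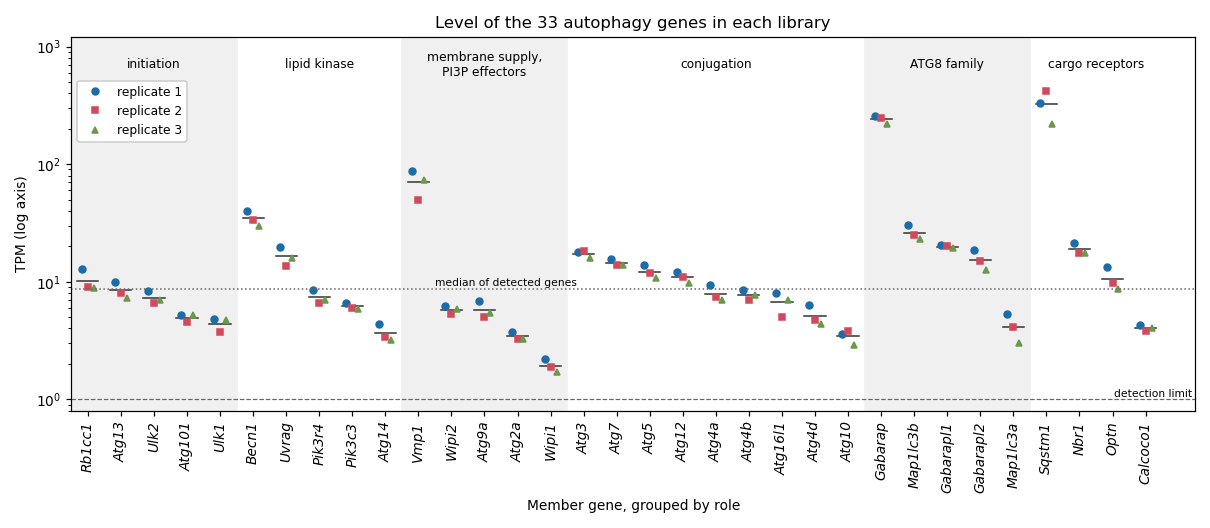
TPM of each of the 33 genes in the 3 libraries (points, log axis), grouped by role, with the mean of the 3 libraries as a horizontal bar; dashed and dotted lines mark the detection limit of 1 TPM and the median mean TPM of detected protein-coding genes, 8.61. Sqstm1 and Gabarap stand far above the other genes, Vmp1 comes next, and every gene lies above the detection limit in all libraries.

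The initiation complex joins the kinases Ulk1 or Ulk2 to the scaffold Rb1cc1, also called FIP200, and to Atg13 and Atg101. Its 5 genes were all of modest level, with means from 4.41 to 10.2 TPM. Rb1cc1 was highest by TPM, at 12.8, 8.94 and 8.81 TPM in replicates 1, 2 and 3, and Ulk1 lowest, at 4.81, 3.70 and 4.72 TPM. Replicate 1 was highest by TPM for 4 of these 5 genes, as it was for 76.7% of detected genes. For Atg101, which stabilizes Atg13, replicate 3 was highest by a small margin, at 5.18 TPM against 5.16 and 4.53. By TPM rescaled over nuclear protein-coding genes, replicate 1 was highest for 2 of the 5 genes and replicate 3 for 3. Atg13 had a mean of 8.45 ± 1.35 TPM and Ulk2 of 7.30 ± 0.91 TPM (SD, n = 3). Ulk1 was lower than its paralog Ulk2 in 3 of 3 libraries, with a log2 ratio of (TPM + 1) of -0.62 ± 0.08 (SE) and an adjusted p of 3.77e-05 (limma, Benjamini-Hochberg). By the same test 39.6% of detected genes were lower than Ulk2. Transcript levels come from a deposited table made from alignments, called alignment-based, and from another made directly from the reads, called read-based. The level of Rb1cc1 was spread over many transcripts: of its 16 annotated transcripts, the leading one of the read-based table, Rb1cc1-216, held 19.0% of the gene's TPM.

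Becn1, Pik3c3 and Pik3r4 form the core of the class III phosphatidylinositol 3-kinase, which Atg14 directs to autophagosome formation and Uvrag to endosomes. Becn1 had the highest TPM of the 5, at 40.3, 33.6 and 29.8 in replicates 1, 2 and 3. The catalytic subunit Pik3c3 and the regulatory subunit Pik3r4 lay close together, at 6.17 ± 0.41 and 7.35 ± 1.02 TPM (SD, n = 3). Of the alternative partners, Uvrag had 19.6, 13.7 and 16.0 TPM and Atg14 had 4.37, 3.41 and 3.21 TPM. The libraries of the 2 partners did not overlap, and Uvrag was higher in 3 of 3 libraries. The log2 ratio of Uvrag to Atg14 was 1.90 ± 0.09 (SE, limma with Benjamini-Hochberg adjustment, adjusted p = 8.1e-30), and 71.3% of detected genes were higher than Atg14 by this test.

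The TPM of Becn1 depended on how its length was set. Becn1 has 17 annotated transcripts, and the leader of both transcript tables was Becn1-211, a 487-base transcript annotated as retained intron, 99.0% of whose bases lie in exons of protein-coding transcripts of the gene. Transcripts annotated as protein-coding held 10.1% of the TPM of Becn1 in the alignment-based transcript table and 4.94% in the read-based table, but 31.7% of its alignment-based counts. Dividing the expected counts by the effective length of the longest protein-coding transcript, here 4365 bases, and keeping each library's protein-coding total gave a fixed-length level of 13.2 in TPM units in place of 34.6. This measure was chosen after seeing the data. On it Becn1 was no longer first of its group, as Uvrag had 18.1. That order rests on the length chosen, as the mean effective length behind the TPM of Becn1 was 1297 bases. Which length fits better was not tested. The order within the initiation group also turned, with Rb1cc1 at 6.80, below Atg13 at 9.53 and Ulk2 at 8.11. Expected counts of Becn1 were 2817, 3357 and 2726 in the 3 libraries, below those of Uvrag at 4765, 5249 and 4506.

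Atg9a scrambles lipids in the vesicles that seed the autophagosome, Atg2a transfers lipid to it, Wipi1 and Wipi2 bind phosphatidylinositol 3-phosphate, and Vmp1 is a scramblase of the endoplasmic reticulum. Vmp1 stood far above the other 4 genes, at 87.8, 49.4 and 73.0 TPM in replicates 1, 2 and 3. The other 4 genes had means of 5.79 ± 0.42 for Wipi2, 5.77 ± 1.00 for Atg9a, 3.42 ± 0.26 for Atg2a and 1.94 ± 0.27 TPM for Wipi1 (SD, n = 3). Wipi2 and Atg9a did not differ beyond their spread. Wipi1, the lowest of all 33 genes, was lower than Wipi2 in 3 of 3 libraries, with a log2 ratio of -1.21 ± 0.07 (SE, limma with Benjamini-Hochberg adjustment, adjusted p = 2.48e-07). By that test 32.3% of detected genes were lower than Wipi2.

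Vmp1 was the only 1 of the 33 genes whose leading read-based transcript was of the class processed transcript, that is, with no open reading frame annotated. This transcript, Vmp1-206, has 2 exons and 931 bases, of which 57.5% lie in exons of protein-coding transcripts. It held 47.6%, 19.8% and 39.8% of the gene's read-based TPM in replicates 1, 2 and 3, so its share was lowest in the library with the least Malat1 and Neat1. On protein-coding transcripts alone, the alignment-based TPM of Vmp1 was 44.6, 30.2 and 39.4, again lowest in replicate 2. The part of nuclear RNA in this pattern was not tested. The microRNA gene Mir21a lies within Vmp1 on the same strand, at chr11:86584067-86584158 of mm10, and was listed at 0 counts in all 3 libraries, which were prepared with a size range of 250 to 400 bases.

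In the conjugation group, Atg7 activates both Atg12 and the ATG8 proteins, Atg3 and Atg10 pass them on, Atg12 joins Atg5, and that conjugate binds Atg16l1 to set where ATG8 proteins are attached. The ATG4 proteases Atg4a, Atg4b and Atg4d cut ATG8 precursors and release ATG8 proteins from lipid. The 9 genes had a narrow range, with means from 3.43 to 17.3 TPM. Atg3 was highest at 17.9, 18.2 and 15.9 TPM, followed by Atg7 at 15.6, 13.9 and 14.0 TPM. The 2 partners of the conjugate, Atg5 and Atg12, had 12.2 ± 1.58 and 11.0 ± 1.21 TPM (SD, n = 3). Atg5 was slightly higher within each library, at 13.94, 11.84 and 10.85 TPM against 12.17, 11.07 and 9.76 TPM. That ratio was not tested. Atg16l1 had 7.97, 5.05 and 6.99 TPM and was lowest in replicate 2. Atg10, the enzyme specific to Atg12, was lowest of the group at 3.58, 3.83 and 2.87 TPM. Replicate 2 was thus the highest library for Atg10, as it was for Atg3 and Sqstm1 and for no other of the 33 genes by TPM.

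Among the proteases, Atg4a had 9.36, 7.46 and 6.96 TPM and Atg4b had 8.45, 6.98 and 7.73 TPM. Their ranges overlapped, and Atg4a was higher in 2 of 3 libraries, with a log2 ratio of 0.03 ± 0.08 (SE, limma with Benjamini-Hochberg adjustment, adjusted p = 0.744). The order of the 2 genes turned with the quantification. In the read-based table the log2 ratio was -0.43 (limma adjusted p = 0.000167), and with the fixed-length level it was 0.60 (limma adjusted p = 1.06e-08), so these data give no stable order. Atg4d was lower than Atg4b in 3 of 3 libraries, at 6.30, 4.72 and 4.39 TPM, with a log2 ratio of -0.52 ± 0.08 (SE, limma with Benjamini-Hochberg adjustment, adjusted p = 0.000232). By this test 41.9% of detected genes were lower than Atg4b. As for Becn1, most of the TPM of Atg4d was placed outside protein-coding transcripts: Atg4d-203, annotated as retained intron with 90.5% of its bases in exons of protein-coding transcripts, held 54.6% of it in the alignment-based table. The fixed-length level of Atg4d was 2.22 against a TPM of 5.14. It rests on the longest protein-coding transcript, of 5951 bases, where Atg4d-203 has 2123.

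The 5 ATG8 genes were dominated by Gabarap. Gabarap had 255, 247 and 221 TPM in replicates 1, 2 and 3, and its lowest library was above the highest library of every other ATG8 gene. Map1lc3b, the gene of the widely used autophagosome marker LC3B, had 30.4, 24.9 and 22.9 TPM. Gabarapl1 had 20.5, 20.0 and 19.2 TPM, but 61.4, 71.4 and 69.5 in TPM rescaled over nuclear protein-coding genes, so its library order depends on the scale. Gabarapl2 had 18.5, 15.0 and 12.6 TPM. Map1lc3a, the gene of LC3A, was lowest of the family at 5.30, 4.11 and 3.00 TPM.

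Gabarap made up 78.7% ± 1.17 of the summed TPM of the family and Map1lc3b 8.49% ± 0.65 (SD, n = 3). Gabarapl1, Gabarapl2 and Map1lc3a held 6.51%, 4.97% and 1.34%. The share of Gabarap was 68.2% ± 0.04 of expected counts, which are not corrected for length, 73.3% ± 0.31 of read-based TPM and 77.5% ± 0.13 of fixed-length levels (SD, n = 3). On each of these 4 measures Gabarap was thus first and Map1lc3a last, and the shares of Gabarap differed between libraries by far less than between genes.

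**Figure D2:**
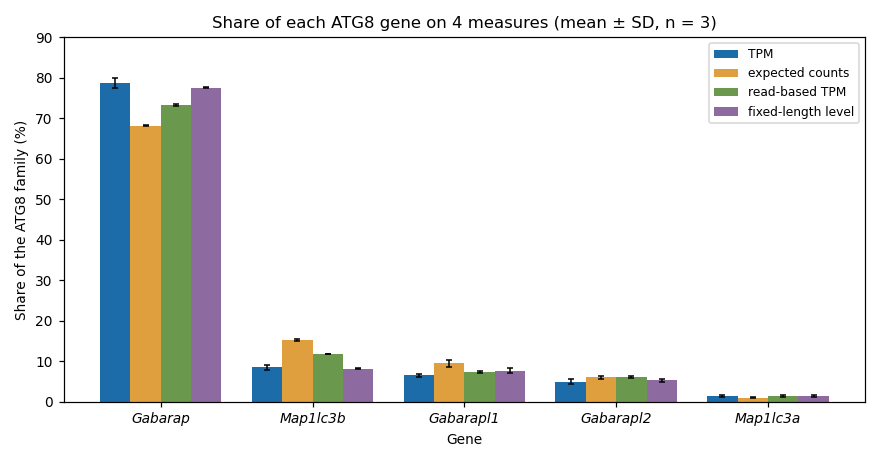
Share of each ATG8 gene in the family total, in percent, by TPM, expected counts, read-based TPM and fixed-length level; bars are the mean of the 3 libraries and error bars the SD. Gabarap holds between 68.2% and 78.7% on every measure, and Map1lc3a about 1%.

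Against Map1lc3b, Gabarap was higher in 3 of 3 libraries, with a log2 ratio of 3.17 ± 0.10 (SE), and 17.4% of detected genes were higher than Map1lc3b by the limma test. Map1lc3a was lower in 3 of 3 libraries, at -2.41 ± 0.12, as was Gabarapl2, at -0.74 ± 0.10, and 77.4% of detected genes were lower than Map1lc3b. All 3 ratios passed limma with Benjamini-Hochberg adjustment, the largest adjusted p being 1.09e-12. Gabarapl1 was lower than Map1lc3b by a smaller margin, at -0.36 ± 0.10 (SE, limma with Benjamini-Hochberg adjustment, adjusted p = 0.000288). With the fixed-length level that ratio was -0.08 and did not pass (limma adjusted p = 0.351). The level of Map1lc3b has a limit of its own: it lies within Gm20388, a gene annotated on the same strand over 119910841 to 124345722 of chromosome 8, which held 1742, 2919 and 2984 expected counts beside 2993, 4021 and 2960 for Map1lc3b.

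**Figure D3:**
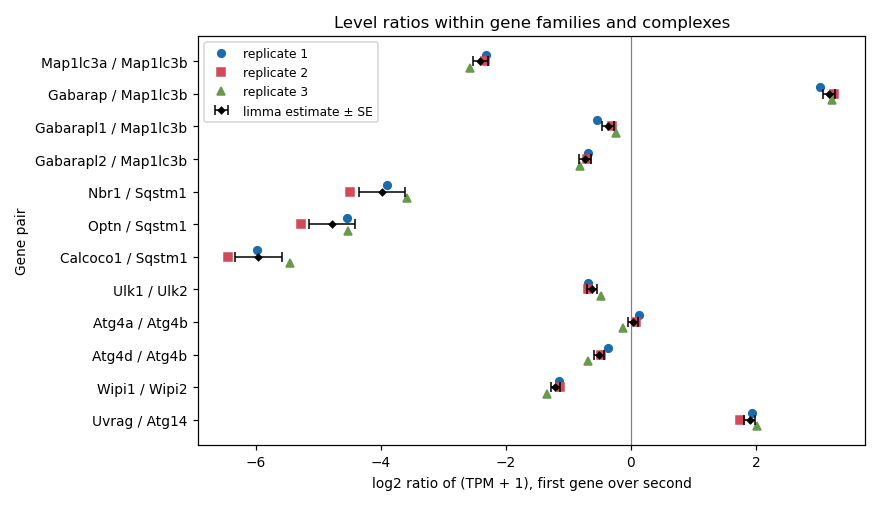
Log2 ratio of (TPM + 1) for 12 pairs of related genes, first gene over second, in each library (colored points) with the limma estimate and its SE (black). Only Atg4a over Atg4b has libraries on both sides of 0, and the 3 ratios over Sqstm1 have the widest spread between libraries.

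Among the 4 cargo receptors chosen, Sqstm1, the gene of p62, was far above the others. This holds for the chosen genes and not for cargo receptors as a class. The 21 further cargo receptors listed for comparison summed to a mean of 527 TPM, beside 325 TPM for Sqstm1. The highest single gene of those 21 had a mean of 103 TPM. Sqstm1 had 334, 419 and 221 TPM in replicates 1, 2 and 3, so replicate 2 was highest and replicate 3 lowest. Nbr1, a receptor of similar domain make-up that can join p62 in protein clusters, had 21.5, 17.7 and 17.6 TPM. Optn, a receptor for damaged mitochondria and bacteria, had 13.3, 9.83 and 8.67 TPM, and Calcoco1, a receptor for endoplasmic reticulum, had 4.27, 3.83 and 4.06 TPM. None of the 3 overlapped Sqstm1 in any library. Their log2 ratios to Sqstm1 were -3.99 ± 0.37 for Nbr1, -4.78 ± 0.37 for Optn and -5.96 ± 0.38 for Calcoco1 (SE, n = 3 libraries). All 3 passed limma with Benjamini-Hochberg adjustment (largest adjusted p = 1.74e-27), as did 97.9% of detected genes. The SE of these ratios, 0.37 to 0.38, was larger than that of the ratios to Map1lc3b, 0.10 to 0.12.

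Of the 12 pairs 11 passed with limma. The very small p-values rest on a variance prior estimated over all genes. Every ratio to 1 reference gene shares that gene's own spread, so these p-values are too small. A further setting, chosen after seeing the data, moderated each gene's variance separately and summed it over the pair. With it the same 11 pairs passed and the largest adjusted p among them was 0.00835 (limma variances, Benjamini-Hochberg). For the 3 ratios to Sqstm1 its SE was 0.18 to 0.19, below the 0.37 to 0.38 of the first fit. It may therefore understate the spread of these 3 ratios. An exact sign test over 3 libraries cannot go below p = 0.25.

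The coefficient of variation of TPM was under 20% for 27 of 33 genes, a share near the 80.6% of detected genes. The median SD of log2(TPM + 1) was 0.170 for the 33 genes and 0.157 for detected genes, an order that turned with rescaled TPM, to 0.0978 and 0.128. The biological coefficient of variation from edgeR, which takes out counting error, had a median of 0.115 over the 33 genes and 0.121 over detected genes. The 6 genes with a coefficient of variation over 20% were Sqstm1, Map1lc3a, Vmp1, Optn, Atg16l1 and Rb1cc1. Sqstm1, Map1lc3a and Vmp1 also exceeded the 90th percentile of SD among detected genes, which was 0.31. The authors' bounds of TPM did not overlap in at least 1 pair of libraries for 24 of 33 genes, against 63.9% of detected genes.

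Replicate 1 held the highest TPM of 29 of 33 genes, replicate 2 of 3 and replicate 3 of 1, against 76.7%, 10.6% and 12.8% of detected genes. Replicate 2 held the lowest TPM of 12 of the 33 genes, against 52.4% of detected genes, and replicate 3 the lowest of 21, against 41.9%. Replicate 1 was lowest for 0 of 33 genes and for 5.71% of detected genes. After TPM was rescaled over nuclear protein-coding genes, the lowest library was replicate 1 for 9 genes, replicate 2 for 9 and replicate 3 for 15, against 37.1%, 38.9% and 24.0% of detected genes. On the rescaled values the highest library was replicate 1 for 14 genes, replicate 2 for 9 and replicate 3 for 10, against 25.4%, 30.0% and 44.5%. Replicate 3 was therefore the commonest lowest library of the 33 genes on both scales, while replicate 2 was that of detected genes. In the rescaled values 2 of the 5 ATG8 genes were lowest in replicate 1 and 3 in replicate 3, beside 37.1% and 24.0% of detected genes. With only 5 genes, whether this differs from detected genes was not tested.

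To set single genes against their library, each library's log2 TPM was set against the mean of the remaining libraries, and the median difference of detected genes was subtracted. Sqstm1 departed most, by 0.76 in replicate 2 and by -0.67 in replicate 3. The range from the 5th to the 95th percentile of detected genes was -0.45 to 0.35 in replicate 2 and -0.39 to 0.37 in replicate 3. Atg10 was the other gene above that range in replicate 2, at 0.39, and Vmp1 the only one below it, at -0.56. Map1lc3a was below the range in replicate 3, at -0.55, and none of the 33 genes left the range in replicate 1. Atg16l1, at -0.43 in replicate 2, lay just inside the range.

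On other scales made from the same reads, Sqstm1 stayed highest in replicate 2, and Sqstm1, Vmp1 and Map1lc3a kept their lowest library. Rescaling TPM multiplies a library by a constant, so the departures above are unchanged by it by design. Only the order of the libraries could turn. Sqstm1 was highest in replicate 2 and lowest in replicate 3 by rescaled TPM, at 1002, 1493 and 800.4, and by read-based rescaled TPM, at 1081, 1483 and 852. By CPM, counts scaled to library size, with TMM normalization, it had 786, 1308 and 633. Vmp1 was lowest in replicate 2 by rescaled TPM, at 264, 176 and 264, and by read-based rescaled TPM, at 319, 212 and 320. Map1lc3a was lowest in replicate 3 on these scales, at 15.9, 14.7 and 10.8 rescaled TPM, from 233, 272 and 158 expected counts. Replicate 2 is also the deepest library and that with the least Malat1 and Neat1, and the part of either in these values was not tested.

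**Figure D4:**
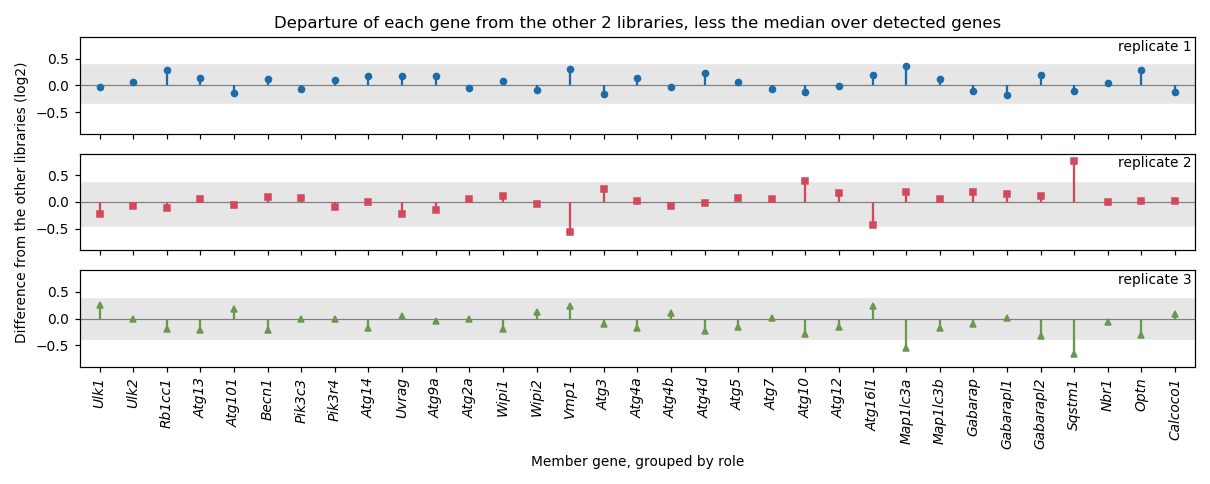
Log2 difference of each of the 33 genes in 1 library from the mean of the remaining libraries, after subtracting the median difference of detected protein-coding genes, in 3 panels for replicates 1, 2 and 3; the grey band runs from the 5th to the 95th percentile of detected genes. Sqstm1 leaves the band upward in replicate 2 and downward in replicate 3, Vmp1 downward in replicate 2 and Map1lc3a downward in replicate 3.

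Transcript tables showed which annotated forms carried these levels. The 33 genes have between 2 and 21 annotated transcripts each. The alignment-based and read-based tables named the same leading transcript for 28 of 33 genes and another for 5, against 9.29% of detected genes with another. The 5 genes were Rb1cc1, Uvrag, Atg9a, Vmp1 and Atg4b. For Uvrag the read-based leader was Uvrag-208, annotated as subject to nonsense-mediated decay, with 29.6% of read-based TPM but 2.31% of alignment-based TPM. The alignment-based leader was the protein-coding Uvrag-201, with 82.9%. For Rb1cc1 the leaders were Rb1cc1-216 and Rb1cc1-201, for Atg9a they were Atg9a-205 and Atg9a-201, and for Atg4b they were Atg4b-203 and Atg4b-201, all annotated as protein-coding.

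The read-based leader was not annotated as protein-coding for 4 of 33 genes, Becn1, Uvrag, Vmp1 and Atg4d, against 6.03% of detected genes. In the alignment-based table the number was 2, Becn1 and Atg4d, against 4.98%. Protein-coding transcripts held under 50% of read-based TPM in all 4 of these genes, against 7.27% of detected genes, and under 50% of alignment-based TPM in Becn1 and Atg4d, against 5.66%. Protein-coding transcripts held a median of 82.9% of read-based TPM over the 33 genes, beside 91.9% over detected genes, and 90.2% beside 95.5% of alignment-based TPM. By alignment-based counts, in which short transcripts weigh less, the medians were 97.4% and 98.3%. Sqstm1 had 82.9% and Gabarap 99.1% of read-based TPM on protein-coding transcripts, whereas Becn1 had 4.94%, Vmp1 48.0% and Rb1cc1 52.2%. The plot of coding shares by gene shows Becn1 and Atg4d below 50% on all 3 measures, and Uvrag with the largest gap between the tables.

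**Figure D5:**
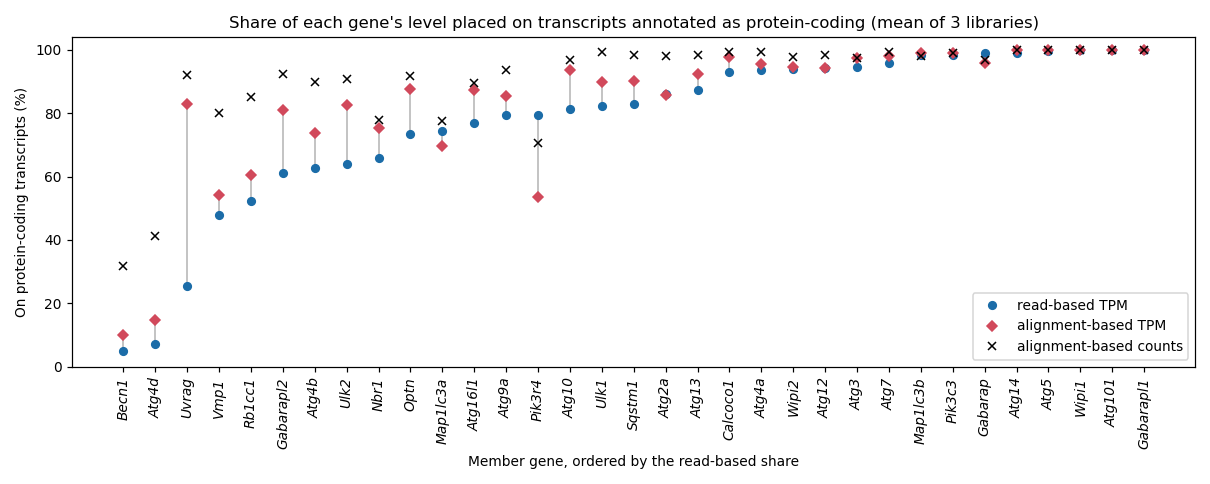
Percent of each gene's level on transcripts annotated as protein-coding (mean of 3 libraries), by read-based TPM, alignment-based TPM and alignment-based counts, with genes ordered by the read-based share. Becn1 and Atg4d lie lowest on all 3 measures, and Uvrag has 25.6% by read-based and 82.9% by alignment-based TPM.

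Of the 33 genes 17 overlap another annotated gene, and 7 overlap one with a mean of 100 or more expected counts. Besides Map1lc3b, these are Atg4b with Thap4, Atg4d with Kri1, Atg9a with Ankzf1, Rb1cc1 with 4732440D04Rik, Atg7 with Gm19040, and Atg16l1 with the small Cajal body RNA Gm25395. Overlaps were not counted over all detected genes, so whether 17 and 7 are unusual numbers cannot be said. Atg16l1 also overlaps Scarna6, a further such RNA, with 100, 28 and 87 expected counts. Gm25395 and Scarna6, like Atg16l1, were lowest in replicate 2, at 20.2 TPM against 46.4 and 62.1 and at 5.47 TPM against 28.8 and 22.9, and their part in the level of Atg16l1 was not tested. Kri1, on the strand opposite to Atg4d, held 932, 1252 and 1096 expected counts, more than the 624, 736 and 710 of Atg4d. Whether the counting used strand is not given in the sources used here, so reads in these overlaps may be split between the genes.

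Promoter windows of 300 bases, from 250 before to 50 after the transcription start, were matched in RefSeq (GRCm38.p6) for 27 of the 33 genes. The letters CACGTG, the core of the site bound by Tfeb and related factors, were found in 4 of these windows, those of Atg3, Atg5, Atg7 and Atg14. That is 14.8%, against 7.15% of all 32851 windows. All windows together outnumber the 22028 annotated protein-coding genes, so they are not a set matched to the 27. The difference was not tested. The letters TGACNNNGC, the core of the element bound by Nrf2, were found on either strand in Atg13, Map1lc3b, Ulk2 and Vmp1, again 14.8%, against 12.4% of all windows. The 2 motifs shared no gene. A match describes these letters only.

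A further 78 autophagy genes were listed for comparison, of which 70 passed the detection limit in all libraries and 6 in none. The highest were Rab7, which guides fusion with lysosomes, at 128 ± 8.38 TPM, and Sh3glb1, a membrane-bending partner of Uvrag, at 124 ± 19.3 TPM. Vamp8, a fusion protein, had 106 ± 23.3 TPM and Ncoa4, the receptor for ferritin, had 103 ± 17.0 TPM (SD, n = 3). All of these lay below Gabarap and Sqstm1. On the fixed-length level Sh3glb1 was 54.9 and Vamp8 43.1, below Ncoa4 at 75.4 and Fkbp8 at 61.9, and Rab7 was 151. Among further cargo receptors, Rtn3 and Fkbp8 followed Ncoa4 at 75.4 and 54.9 TPM, and among fusion genes Stx7 followed at 59.1 TPM. The fixed-length levels of Rtn3, Stx7 and Tmem41b were also lower than their TPM by more than 1.5 times, at 49.4, 37.7 and 7.96. Other core paralogs led with Sh3glb1, Tmem41b and Wdr45b, the latter at 15.1 and 13.1 TPM, the receptor kinase group with Tank, Tbk1 and Azi2 at 33.3, 31.2 and 30.4 TPM, and the regulators with Tfe3, Rheb and Sesn1 at 31.4, 23.6 and 21.3 TPM. Tbk1, the kinase that phosphorylates Optn and p62, was detected beside its substrates.

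The genes under 1 TPM in all libraries included close relatives of the 33 genes. Atg9b, the paralog of Atg9a, had 0.36, 0.75 and 0.44 TPM, where Atg9a had 6.90, 5.02 and 5.39 TPM. Calcoco2, a relative of Calcoco1, was listed at 0 expected counts in all 3 libraries, and a count of 0 allows up to 3 counts, or 0.0785, 0.0648 and 0.0775 CPM, by counting error alone. Stbd1, a receptor for glycogen, had 2, 6 and 6 expected counts. Ulk4, Prkaa2 and Ddit4 had means of 0.34, 0.05 and 0.53 TPM.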

How the data were processed

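The labels name 3 libraries of 1 group. The deposited gene tables hold expected counts, TPM, FPKM, effective lengths and lower and upper bounds of TPM, per the file headers in the layout of RSEM. Deposited transcript tables hold expected or estimated counts and TPM, in the same layout (alignment-based) or in that of kallisto (read-based), per the file headers. The deposited files name mm10 and annotation M21. The sources used here do not give aligner and quantifier versions, strandedness or the level of the bounds. The FPKM values deposited by the authors served as an alternative scale.

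The 33 genes, the other lists and the tests were chosen with earlier results of these data known. Genes were named by a fixed rule: all 33; in each other list the 3 with the highest mean TPM and every gene under 1 TPM in each library; and transcripts whose leader differed between tables or was not protein-coding. The 26345 rows naming no gene, 0.104% to 0.356% of expected counts, were left out of library sizes and tests.

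Detection was a TPM of at least 1 in each library. Ratios were tested on log2(TPM + 1), which understates ratios of low genes: each detected protein-coding gene minus the reference gene, in an intercept-only limma 3.58.1 fit with trend, two-sided, adjusted by Benjamini-Hochberg over 9117 genes. The background share in each direction comes from the same fit. The biological coefficient of variation is from edgeR 4.0.16 (R 4.3.3, TMM, filterByExpr) on expected counts rounded to whole numbers. DESeq2 1.42.0 gave alternatives. The scripts were tested on simulated data. Library pairs differed beyond sampling noise (chi-square per degree of freedom of 44.8 to 113), so none was counted as a duplicate. Python 3.11.15 was used with pandas 2.3.3, scipy 1.17.1 and matplotlib 3.10.9.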

Additional observations from a re-analysis of the deposited data

How the results depend on the processing

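Of 108 values of the 12 gene pairs under 9 alternatives each, 103 kept their direction and their side of the threshold, and 10 of the 12 pairs did so under all 9. Dropping the filter on low genes or moderating each gene's variance separately leaves every ratio unchanged by design. Alignment-based transcript levels changed the ratios very little, so the direction of part of the 103 values was fixed in advance. The log2 ratio of Atg4a to Atg4b turned to -0.43 in the read-based table and was 0.60 with the fixed-length level, which was added after seeing the data. Leaving out each library in turn gave -0.0245 to 0.108 for it, and -0.000288 without replicate 2. The ratio of Gabarapl1 to Map1lc3b was -0.0842 with the fixed-length level. The cause was not tested. The genes detected were 33 at 0.5 TPM, 24 at 5 TPM and 32 by read-based TPM, beside 9869, 5758 and 7761 of 22028 protein-coding genes. The median level of 3.15 became 3.78 by FPKM, 4.79 by rescaled TPM and 2.15 in the read-based table, and the median of detected genes moved with it from 3.25 to 3.89, 4.90 and 2.20. The median SD of 0.170, above the 0.157 of detected genes, became 0.0978 with rescaled TPM, below their 0.128, and 0.112 by TMM-normalized CPM, below their 0.122; left-out libraries gave 0.0823 to 0.190. The median biological coefficient of variation of 0.115 became 0.0798 by DESeq2 gene-wise dispersion, and left-out libraries gave 0.106 to 0.129. The 12 genes lowest in replicate 2 became 7 by TMM-normalized CPM, 5 by DESeq2 size factors and 5 in the read-based table, where 28.4%, 21.5% and 23.3% of detected genes were; with replicate 1 or 3 left out they were 12 and 30, beside 54.8% and 86.4% of detected genes. The number of leading transcripts not annotated as protein-coding was 4, or 2 in the alignment-based table. No paired analysis was possible because there is only 1 group. Depth limits mainly Map1lc3a, Wipi1, Atg10 and Atg101, with 158 to 411 counts in a library. With 3 libraries of 1 group, no test of a condition was possible.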
